A study of Homo sapiens with 6 samples.

Results

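The expression of 35 genes of oxygen sensing and of the hypoxia-inducible factor (HIF) response was examined in HCT116 cells, a human colon cancer line, with and without overexpression of cytoglobin (CYGB), a haem protein that binds oxygen. The genes were chosen by symbol, as 10 genes that build or control HIF and 25 genes that HIF is known to induce, from the 40173 genes of the table. All 35 were found, and all 35 were among the 19987 genes that passed the expression filter. RNA was sequenced from cells stably transduced with a control lentivirus (MOCK) or with a lentivirus carrying the CYGB coding region joined to a FLAG tag. Each group had 3 libraries, labelled as numbered replicates. Both lines carry a lentiviral insertion and went through puromycin selection, so MOCK is a transduced control and not the parental line. Whether the 3 libraries of a group came from separate transductions is not given in the sources used here. The p-values set the difference between groups against the spread between these libraries, and need not hold for other transduced lines. The labels name no hypoxia treatment and no oxygen level, so the oxygen that the cells met in culture is not known.

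In the presence of oxygen, prolyl hydroxylases mark the HIF alpha subunits for recognition by the VHL ubiquitin ligase and for degradation. When oxygen falls, the alpha subunits persist, pair with the beta subunit ARNT and bind promoters and enhancers that hold a short core sequence, ACGTG or GCGTG. Their target genes move glucose into the cell, divert pyruvate from mitochondria, adjust pH, modify collagen and attract blood vessels, and several of them, among them EGLN1 and EGLN3, feed back on the pathway. Much of this control acts on HIF protein, which RNA counts do not measure.

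The core sequence was looked for in the 250 bases before the start of each gene, in the RefSeq promoter sequences of GRCh38.p14, where 28 of the 35 genes had an entry. ACGTG or GCGTG stood on either strand in 23 of the 28 genes, or 82.1%, against 47.4% of all 27305 genes with an entry and 62.7% of those with a symbol tested here. The form ACGTG alone stood in 15 of the 28, or 53.6%, against 21.7% and 28.0%. A match describes letters in a window and is not a binding site. On the strand of the gene the core reads ACGTG or GCGTG, or CACGT or CACGC where it lies on the opposite strand. The stretches below show the match nearest the start. Shown are 6 of the 22 genes that were lowest in CYGB replicate 1 (CA9, ANKRD37, ADM, DDIT4, P4HA1 and EGLN1). Also shown are 2 genes whose groups did not overlap and were higher with CYGB (PLOD1 and STC2). All of these genes were picked after the values were seen, and the capitals mark the core.
CA9: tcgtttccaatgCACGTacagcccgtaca
ANKRD37: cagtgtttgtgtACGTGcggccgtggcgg
ADM: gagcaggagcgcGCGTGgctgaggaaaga
DDIT4: ggcgcagagaagGCGTGgcctcgccgcgc
P4HA1: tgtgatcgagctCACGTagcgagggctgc
EGLN1: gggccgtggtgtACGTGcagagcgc
PLOD1: ggcgggcccagtGCGTGgcagcgggacct
STC2: acgCACGCaaacGCGTGgccgccgccagg

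Each of these is written 5′ to 3′ on the strand of its gene, in GRCh38.p14. CA9 is at chr9:35673898-35673926 and ANKRD37 at chr4:185396686-185396714, both on the plus strand. ADM is at chr11:10304960-10304988 and DDIT4 at chr10:72273859-72273887, also on the plus strand. P4HA1 is at chr10:73096936-73096964 and EGLN1 at chr1:231422288-231422312, both on the minus strand. PLOD1 is at chr1:11934680-11934708 on the plus strand and STC2 at chr5:173328620-173328648 on the minus strand. RefSeq and GENCODE 29 place some starts differently. The DDIT4 stretch lies before every GENCODE transcript of the gene, and the PLOD1 stretch lies outside its most abundant transcript, whereas the other 6 fall in the untranslated first part of the most abundant GENCODE transcript. The first base of the core stood 18 bases before the RefSeq start in CA9, 13 in EGLN1, 25 in PLOD1 and 222 in STC2.

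CYGB itself was counted 10, 28 and 34 times in the MOCK libraries and 34935, 27681 and 32333 times in the CYGB libraries, in accord with the labels (log2 fold change 10.35, adjusted p = 0.00226 by the quasi-likelihood test of edgeR with Benjamini-Hochberg adjustment). Total counts were 58138393 to 66035266 per library. The epithelial markers EPCAM, CDH1, KRT8, KRT18, KRT19 and CDX2 were expressed, whereas KRT20, VIL1 and CEACAM5 were near 0. Summed over the 9 epithelial markers found, the level was 4128 to 4602 CPM (counts scaled by library size) in MOCK and 4200 to 4490 CPM in CYGB libraries. Most of this sum was KRT8 and KRT19, so it says little of the other markers. EPCAM was at 159 CPM in CYGB replicate 3, against 307 to 341 CPM in the other libraries. The 6 fibroblast markers summed to 45.6 to 55.2 CPM, almost all of it COL1A1, the 4 immune markers to 10.2 to 25.9 CPM, and the 4 endothelial markers to 0.925 to 2.32 CPM.

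None of the 35 genes was called. At an adjusted p under 0.05 the count was 0 of 35, where 0.055% of all genes tested were called by the quasi-likelihood test of edgeR with Benjamini-Hochberg adjustment. At the threshold of the study's methods, an unadjusted p of at most 0.01 with a ratio of at least 2 or at most 0.5, it was again 0 of 35, where 0.565% of all genes were called. With DESeq2 1 of the 35, VHL, passed the second threshold and none passed the first, against 1.32% and 0.543% of all genes with an adjusted p from DESeq2. An unadjusted p under 0.05 was found for 2 of the 35, VHL and SLC2A1, against 4.54% of all genes. Both were higher in CYGB-overexpressing cells. For 13 genes the log2 fold change was above 0 and for 22 it was below 0, with a median of -0.07 against -0.01 over all genes tested. For 31 of the 35 it lay within 0.5 of 0 on the log2 scale. Standard errors (SE) ranged from 0.06 for SLC2A1 to 1.37 for BHLHE40, with a median of 0.15, so a difference of the size of most of these would not have been detectable for the more variable genes.

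**Figure D1:**
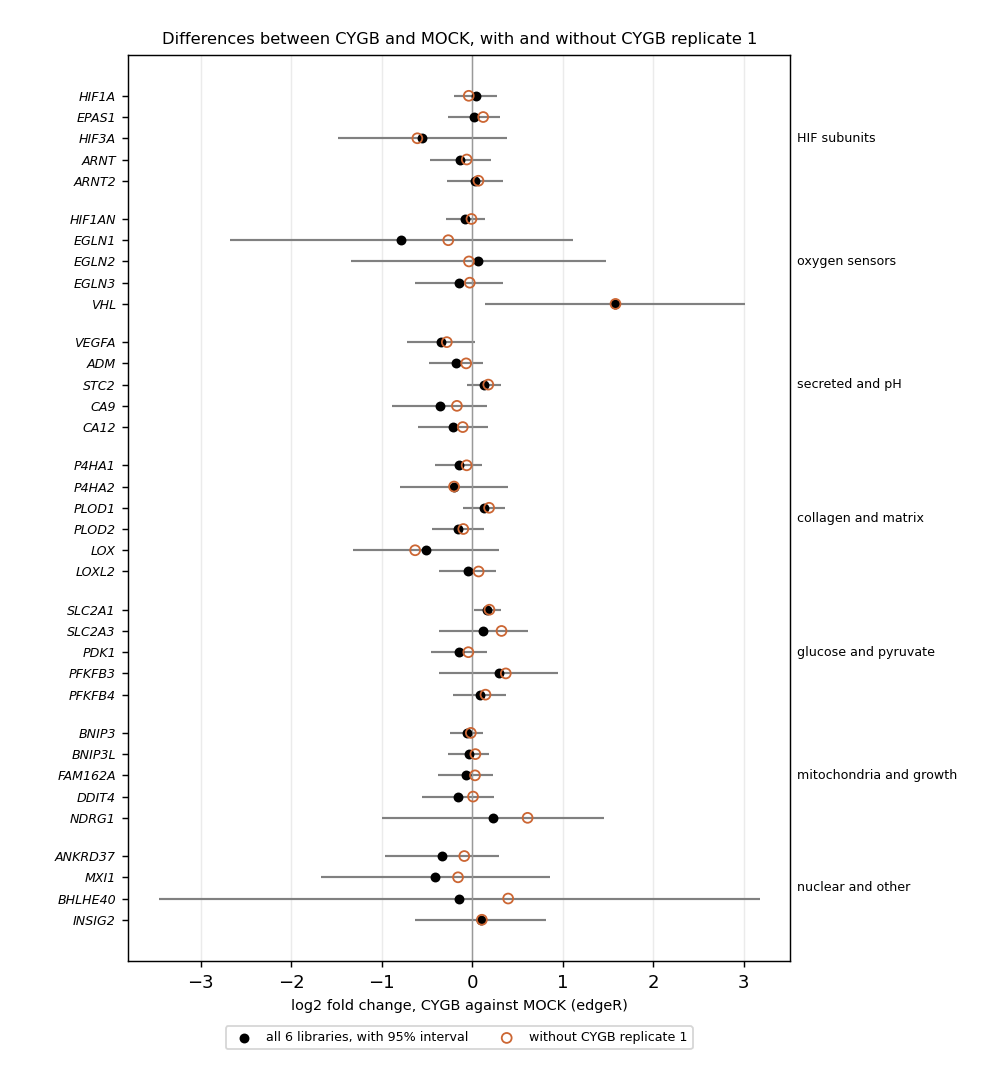
Log2 fold change of each of the 35 genes, CYGB against MOCK, grouped by role. Filled points with 95% intervals are from all 6 libraries and open circles leave out CYGB replicate 1; only the intervals of VHL (0.14 to 3.01) and SLC2A1 (0.02 to 0.32) lie clear of 0, before any adjustment for the number of genes.

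The members differed widely in level. Levels of different genes were compared in TPM, a scale of abundance that corrects for transcript length. DDIT4 had the highest median over the 6 libraries at 665 TPM (463 to 703), followed by SLC2A1 at 649 TPM (591 to 739), NDRG1 at 564 TPM (301 to 1284) and PLOD1 at 504 TPM (484 to 617). The ranges of these 4 genes overlapped, so their order is not fixed by these libraries. The oxygen-regulated subunits were intermediate, with 63.3 TPM for HIF1A (56.1 to 68.5) and 50.5 TPM for EPAS1 (41.4 to 54.9). Their ranges do not overlap. ARNT was lower, at 26.1 TPM (24.0 to 32.3), and ARNT2 lower still, at 6.27 TPM (5.31 to 6.94). Of the hydroxylases, EGLN2 had a median of 56.0 TPM (15.9 to 75.5), EGLN1 of 48.9 TPM (4.35 to 58.01), HIF1AN of 33.6 TPM (27.1 to 36.1) and EGLN3 of 29.6 TPM (22.5 to 36.9). EGLN1 and EGLN2 could not be ordered against the other hydroxylases, because 1 library of EGLN1 and 2 of EGLN2 fell below all values of HIF1AN and EGLN3. At the other end, LOX had a median of 0.886 TPM and HIF3A of 0.193 TPM. CA9, a widely used marker of hypoxia, was measured at 17.4 TPM (10.6 to 20.2) in cells that the labels do not describe as hypoxic. The library kit is not stated to keep strand, so reads of ARHGEF39, which overlaps CA9 on the opposite strand, could be part of this level.

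**Figure D2:**
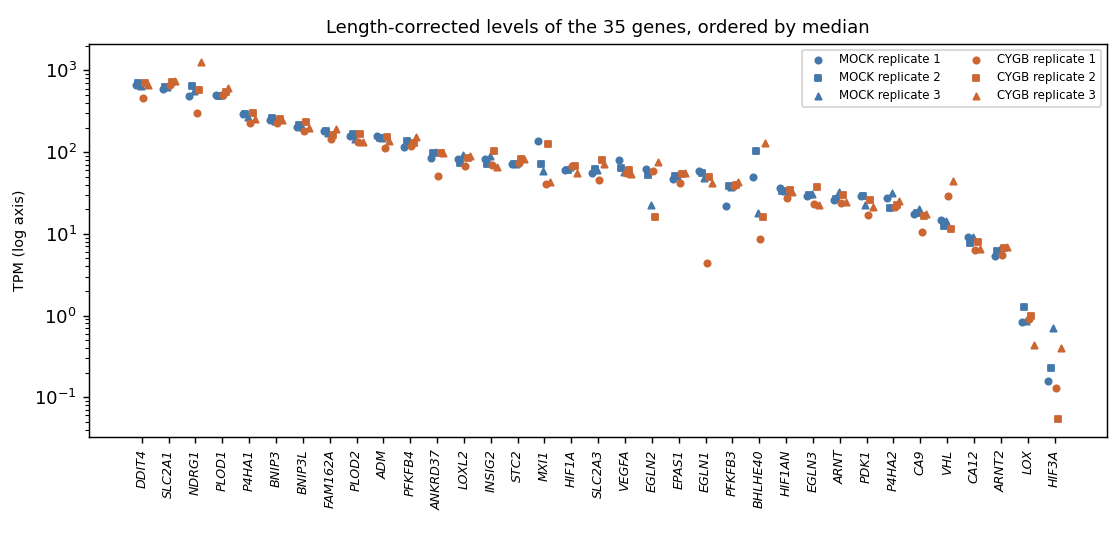
Level of each of the 35 genes in each of the 6 libraries in TPM, on a log axis, ordered by median. Points are single libraries, blue for MOCK and orange for CYGB; levels run from a median of 665 TPM for DDIT4 to 0.193 TPM for HIF3A, and the lowest EGLN1 point, at 4.35 TPM, is CYGB replicate 1.

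None of the 5 HIF subunits passed either threshold. HIF1A (ENSG00000100644, chromosome 14 of GRCh38 from 61695513 to 61748259), the HIF-1α subunit, had 5365, 5846 and 6260 counts in MOCK and 6570, 6038 and 5566 in CYGB libraries. The groups overlapped, and the log2 fold change was 0.04 (SE 0.10, 95% interval -0.21 to 0.28, adjusted p = 0.989). EPAS1 (ENSG00000116016, chromosome 2 from 46293667 to 46386703) encodes HIF-2α. Its counts were 5209, 6446 and 6239 in MOCK and 5123, 6376 and 6886 in CYGB libraries. The highest and the lowest count were both in the CYGB group, and the log2 fold change was 0.02 (SE 0.12, adjusted p = 0.998). HIF3A (ENSG00000124440), whose splice forms can hold back the other alpha subunits, was barely expressed, with 16, 15 and 18 counts in MOCK and 12, 8 and 14 in CYGB libraries. The CYGB values were all lower, but at 8 to 18 counts the interval of the log2 fold change ran from -1.48 to 0.39 (estimate -0.55, SE 0.38, adjusted p = 0.963). ARNT (ENSG00000143437), the beta partner, had 2381, 2841 and 3146 counts in MOCK and 2278, 2961 and 2496 in CYGB libraries. These overlapped, with a log2 fold change of -0.13 (SE 0.14, adjusted p = 0.963). ARNT2 (ENSG00000172379), a related beta subunit, had 841, 937 and 1046 counts against 901, 935 and 1087, which gave 0.03 (SE 0.13, adjusted p = 0.996). Adjusted p-values here and below come from the quasi-likelihood test of edgeR with Benjamini-Hochberg adjustment over all genes tested.

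None of the oxygen-sensing enzymes passed either threshold, nor did VHL by edgeR, and they differed in how even their counts were. HIF1AN (ENSG00000166135), the asparaginyl hydroxylase that keeps coactivators off HIF, was steady, with 9182, 9968 and 10304 counts in MOCK and 8436, 9492 and 10517 in CYGB libraries. The log2 fold change was -0.07 (SE 0.09, 95% interval -0.29 to 0.14, adjusted p = 0.964). It overlaps NDUFB8 on the opposite strand, and the library kit is not stated to keep strand, so part of these reads could belong to NDUFB8. EGLN1 (ENSG00000135766, chromosome 1 from 231363751 to 231425044, minus strand), the main prolyl hydroxylase PHD2, had 10246, 10799 and 8944 counts in MOCK and 769, 8900 and 8170 in CYGB libraries. A single library, CYGB replicate 1, was far below the other 5. With all libraries the log2 fold change was -0.78 (SE 0.78, adjusted p = 0.963) and -0.26 without CYGB replicate 1 (unadjusted p = 0.0923). Almost all EGLN1 counts were given to 1 transcript in every library, and no other gene with more than 300 counts in all overlapped it. Transcripts without a gene were not looked at for this overlap, and the cause of the low library was not tested.

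EGLN2 (ENSG00000269858, chromosome 19 from 40798996 to 40808433), the prolyl hydroxylase PHD1, had 3431, 3216 and 1477 counts in MOCK and 3263, 1005 and 4506 in CYGB libraries. The low libraries were 1 of each group, MOCK replicate 3 and CYGB replicate 2, and the log2 fold change was 0.07 (SE 0.58, adjusted p = 0.998). In the same 2 libraries the readthrough gene RAB4B-EGLN2, which shares its exons, was highest, at 198 and 476 counts against 0 to 25 in the others. Summed with it, the counts of these libraries were 1675 and 1481, against 3224 to 4506 in the rest. The cause of the low EGLN2 counts was not tested. EGLN3 (ENSG00000129521), the prolyl hydroxylase PHD3 and itself a HIF target, had 1900, 2144 and 2058 counts in MOCK and 1520, 2443 and 1631 in CYGB libraries. The MOCK values lay inside the CYGB range, with a log2 fold change of -0.15 (SE 0.20, adjusted p = 0.969). SPTSSA overlaps the annotated EGLN3 gene on the same strand, so counts between them may be divided imperfectly.

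VHL (ENSG00000134086, chromosome 3 from 10141008 to 10152220, plus strand), the part of the ubiquitin ligase that recognises hydroxylated HIF, had the largest log2 fold change of the 35 genes. Its counts were 874, 651 and 798 in MOCK and 2293, 707 and 4133 in CYGB libraries. CYGB replicates 1 and 3 were above every MOCK library, and CYGB replicate 2 lay within the MOCK range. This corresponded to 15.4 ± 3.09 CPM (SD, n = 3) for MOCK against 46.0 ± 32.4 CPM (SD, n = 3) for the CYGB libraries. On the log2 scale the difference was 1.57 (SE 0.59, 95% interval 0.14 to 3.01). The unadjusted p was 0.0363 and the adjusted p 0.963 by edgeR's quasi-likelihood test. Leaving out CYGB replicate 3 brought the log2 fold change to 0.95, and leaving out CYGB replicate 2 brought it to 2.00. With DESeq2 the unadjusted p was 0.0071 and the adjusted p 0.368, the lowest adjusted p of any member over the alternatives, which ran to 1.00 for VHL.

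**Figure D3:**
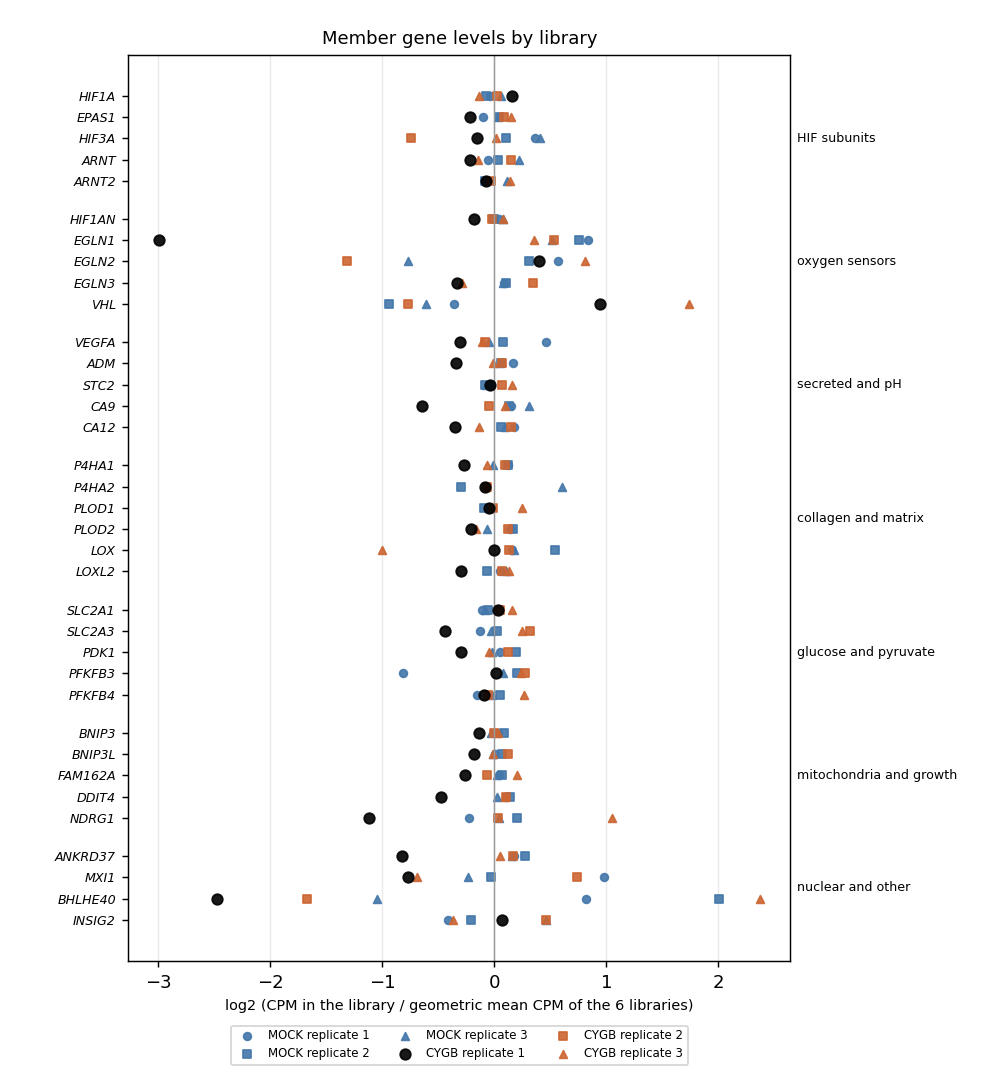
Level of each gene in each library relative to the geometric mean of its 6 libraries, on a log2 scale of CPM, grouped by role. Blue marks are MOCK, orange marks CYGB and the black circle CYGB replicate 1, which is the lowest mark for 22 of the 35 genes; BHLHE40, EGLN1, VHL, NDRG1 and EGLN2 are the most spread.

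Of the 5 secreted factors and pH enzymes, 4 had a log2 fold change below 0, and none passed a threshold. VEGFA (ENSG00000112715), the chief growth factor of blood vessels, had 5612, 4813 and 4283 counts in MOCK and 3528, 4133 and 4189 in CYGB libraries. All MOCK libraries were above all CYGB libraries, as for 5.31% of all genes, and MOCK replicate 1 stood highest. The log2 fold change was -0.34 (SE 0.15, unadjusted p = 0.0658), and -0.18 without MOCK replicate 1. In MOCK replicate 1 the retained intron transcript ENST00000497139 of VEGFA had 2196 counts, against 671 to 987 in the other libraries. CA9 (ENSG00000107159), a carbonic anhydrase of the cell surface, had 704, 775 and 856 counts in MOCK and 435, 662 and 756 in CYGB libraries. Its groups did not overlap in CPM, with 14.7 to 16.6 against 8.61 to 14.4, and CYGB replicate 1 was lowest. The log2 fold change was -0.36 (SE 0.22, unadjusted p = 0.147), and -0.17 without CYGB replicate 1. ARHGEF39 overlaps CA9 on the opposite strand, with 858 to 1308 counts, so part of the CA9 reads could belong to it. Summed with ARHGEF39, the counts were 1569, 1652 and 2112 in MOCK and 1497, 1970 and 1614 in CYGB libraries, and the groups overlapped. CA12, a related enzyme, gave -0.21. ADM (ENSG00000148926), which encodes the vasodilator adrenomedullin, had 7130, 7435 and 7194 counts in MOCK and 5366, 7167 and 7033 in CYGB libraries. Only CYGB replicate 1 stood apart, with a log2 fold change of -0.18 with it (SE 0.12) and -0.07 without it. STC2, a secreted glycoprotein, was counted 9028, 9837 and 9621 times in MOCK and 9677, 10479 and 11540 times in CYGB libraries. In CPM its groups did not overlap and CYGB was higher, as for 5.72% of all genes, by a log2 fold change of 0.13 (SE 0.08, unadjusted p = 0.135), with CYGB replicate 1 (192 CPM) just above MOCK replicate 1 (191 CPM).

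Of the 6 collagen and matrix genes, 5 had a log2 fold change below 0, and none passed either threshold. P4HA1 and P4HA2, the catalytic subunits of collagen prolyl hydroxylase, gave -0.15 and -0.20. P4HA1 was counted 20464, 22894 and 20301 times in MOCK and 16693, 21646 and 19996 times in CYGB libraries. For P4HA2 it was a MOCK library that stood apart, with 895, 858 and 1563 counts in MOCK and 952, 969 and 997 in CYGB libraries. The lysyl hydroxylases differed in sign, with 0.13 for PLOD1 (SE 0.09, unadjusted p = 0.208) and -0.16 for PLOD2 (SE 0.12, unadjusted p = 0.225). The PLOD1 groups did not overlap in CPM, at 579 to 594 in MOCK and 594 to 732 in CYGB, but they came within 1 CPM of each other, and the highest value was that of CYGB replicate 3. LOX, which cross-links collagen, was low, with 106, 155 and 117 counts in MOCK and 102, 112 and 53 in CYGB libraries. Its groups did not overlap in CPM, and the log2 fold change was -0.51 (SE 0.33, unadjusted p = 0.173). SRFBP1 overlaps LOX on the opposite strand, with 649 to 891 counts, so part of the LOX reads could belong to it. LOXL2, a relative of LOX, gave -0.05.

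In glucose and pyruvate metabolism, 4 of 5 genes had a log2 fold change above 0. SLC2A1 (ENSG00000117394, chromosome 1 from 42925375 to 42959176, minus strand), the glucose transporter GLUT1, had 51701, 59826 and 57233 counts in MOCK and 61017, 62183 and 69269 in CYGB libraries. All 3 CYGB libraries were above all 3 MOCK libraries, at 1113 ± 18.9 CPM (SD, n = 3) for MOCK against 1250 ± 60.1 CPM (SD, n = 3) for CYGB. The log2 fold change was small, 0.17 (SE 0.06, 95% interval 0.02 to 0.32). The unadjusted p was 0.0325 and the adjusted p 0.963 by edgeR's quasi-likelihood test. The value ranged from 0.13 to 0.19 when single libraries were left out. Its promoter window held no match to the core. SLC2A3, the transporter GLUT3, had 5568, 6939 and 6511 counts in MOCK and 4803, 8171 and 8039 in CYGB libraries. CYGB replicate 1 was the lowest library and the other CYGB libraries the highest, so the log2 fold change was 0.12 (SE 0.20) with it and 0.32 (unadjusted p = 0.0116, adjusted p = 0.962) without it. Its reads may be shared with the close paralog SLC2A14.

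PDK1, the kinase that shuts off pyruvate dehydrogenase, had 5280, 6543 and 5504 counts in MOCK and 4442, 5969 and 5487 in CYGB libraries. These overlapped, with a log2 fold change of -0.14 (SE 0.13, unadjusted p = 0.300). PFKFB3 and PFKFB4, which set the level of the glycolytic activator made from fructose phosphate, gave 0.30 (SE 0.27) and 0.08 (SE 0.12). PFKFB3 was low in MOCK replicate 1, with 1263 counts against 2412 to 2929 in the other 5 libraries.

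The mitochondrial and growth genes held some of the highest and some of the most even counts. BNIP3 (ENSG00000176171), a receptor that marks mitochondria for removal, had 17457, 20300 and 18273 counts in MOCK and 16656, 18382 and 19462 in CYGB libraries. The highest CPM was 1.17 times the lowest, and the log2 fold change was -0.06 (SE 0.07, 95% interval -0.24 to 0.12). BNIP3 has a pseudogene of similar sequence, BNIP3P1, with which reads may be shared. BNIP3L, a second receptor of this kind, gave -0.04 and FAM162A, a mitochondrial protein induced by HIF, -0.07. DDIT4, which restrains growth signalling through mTOR, had 28199, 32390 and 29096 counts in MOCK and 20259, 30376 and 31239 in CYGB libraries. CYGB replicate 1 stood below the other 5, and the log2 fold change was -0.16 with it and 0.01 without it. NDRG1 (ENSG00000104419), a stress-response gene, was uneven, with 36840, 55464 and 48366 counts in MOCK and 21219, 47459 and 99250 in CYGB libraries. The lowest and the highest library were both in the CYGB group, 4.50-fold apart in CPM, and the log2 fold change was 0.23 (SE 0.50, 95% interval -1.001 to 1.46). It was -0.45 without CYGB replicate 3 and 0.61 without CYGB replicate 1. In CYGB replicate 3, 77375 of the NDRG1 counts (78.0%) were given to ENST00000517599, a nonsense-mediated decay transcript with 0 counts in every other library. The protein coding ENST00000414097 had 158 counts there, against 14077 to 24587 in the other libraries. The high NDRG1 count of that library was thus counted mostly on ENST00000517599, and the cause was not tested.

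Among the nuclear and remaining targets, BHLHE40 (ENSG00000134107, chromosome 3 from 4979116 to 4985323), a transcriptional repressor, varied most of the 35 genes. It had 3714, 9409 and 1105 counts in MOCK and 404, 709 and 12099 in CYGB libraries. The highest library was 28.8-fold above the lowest in CPM, and the MOCK values lay inside the CYGB range. Its log2 fold change of -0.14 therefore came with a 95% interval of -3.47 to 3.18. MXI1, an antagonist of MYC, also varied in both groups, with 8708, 4834 and 4089 counts in MOCK and 2765, 7881 and 3038 in CYGB libraries (log2 fold change -0.41, SE 0.52). ANKRD37, an ankyrin repeat protein, had 2118, 2535 and 2280 counts in MOCK and 1137, 2275 and 2172 in CYGB libraries, with -0.34 (SE 0.26) in all libraries and -0.09 without CYGB replicate 1. UFSP2, which overlaps it on the opposite strand, was also lowest in CYGB replicate 1, at 820 counts against 1275 to 1782 in the other 5. INSIG2, which holds back sterol synthesis, gave 0.10 (SE 0.30).

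The spread between libraries was thus concentrated in a few members. For 18 of the 35 genes the highest library was under 1.5 times the lowest in CPM. It was over 4 times the lowest for 5, BHLHE40 (28.8), EGLN1 (14.2), VHL (6.39), NDRG1 (4.50) and EGLN2 (4.34). That is 14.3% of the members, against 8.42% of the 9947 tested genes whose mean was at least 10 CPM. The median ratio was 1.44 for the members and 1.39 for those genes. CYGB replicate 3 was the highest library for VHL, NDRG1, EGLN2 and BHLHE40, and CYGB replicate 1 the lowest for EGLN1, NDRG1 and BHLHE40. EGLN2 was low in CYGB replicate 2 and MOCK replicate 3, VHL was also high in CYGB replicate 1, and BHLHE40 was also high in MOCK replicate 2.

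Within the CYGB group, replicate 1 was low and replicate 3 high for many of the genes. CYGB replicate 1 had the lowest CPM of the 6 libraries for 22 of the 35 genes (62.9%) and for 17 of the 25 targets (68.0%), against 19.0% of all genes tested. The median log2 ratio of this library to the mean of the other 5 was -0.27 over the members and -0.32 over the targets, against -0.01 over all genes. All 5 mitochondrial and growth genes and 4 of the 5 secreted and pH genes were lowest there, as were 2 of the 5 HIF subunits and 2 of the 5 genes of glucose and pyruvate metabolism. HIF1A was highest in that library, at 130 CPM against 106 to 122 CPM in the others. The total of 61601071 counts in CYGB replicate 1 lay within the range of the other libraries. CYGB replicate 3 had the highest CPM for 13 of the 35 genes (37.1%) and 8 of the 25 targets (32.0%), against 17.9% of all genes. Without CYGB replicate 1, the median log2 fold change of the members was -0.01 with 19 of 35 below 0, and that of the targets 0.01 with 12 of 25 below 0. Without CYGB replicate 3, the median of the members was -0.13. The part of culture state, RNA quality or library preparation in this was not tested.

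The table gives counts per transcript, and 180 of the 307 transcripts of these genes passed the filter. By edgeR 0 of 180 had an adjusted p under 0.05, against 0.015% of all transcripts tested, and 0 passed the threshold of the study's methods, against 1.02%. An unadjusted p under 0.05 was reached by 5 of the 180, against 3.78% of all transcripts. The way reads were shared out between isoforms is not given in the sources used here, so shares of transcripts are those of the deposited table. For 25 genes the same transcript was the most abundant in all 6 libraries, and for 10 the leading transcript changed. By mean count over the 6 libraries, the most abundant transcript was protein coding for 32 genes and a retained intron for NDRG1, SLC2A3 and VEGFA. The retained intron transcript of NDRG1 led in only 2 of the 6 libraries.

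VHL was divided differently from library to library. Its full-length protein coding transcript ENST00000256474 had 397, 38 and 167 counts in MOCK and 1738, 400 and 3991 in CYGB libraries. CYGB replicates 1 and 3 were far above the MOCK libraries, CYGB replicate 2 was close to MOCK replicate 1, and the log2 fold change was 3.28 (SE 1.18, unadjusted p = 0.0336, adjusted p = 1.00). The shorter protein coding transcript ENST00000345392 went the other way in places, with 352, 455 and 483 counts in MOCK and 439, 204 and 0 in CYGB libraries. The transcript ENST00000256474 held 45.4, 5.84 and 20.9% of VHL counts in MOCK and 75.8, 56.6 and 96.6% in CYGB libraries. The high VHL counts of CYGB replicates 1 and 3 were thus counted mostly on that transcript.

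HIF1A kept its total while its division changed in 1 library. In CYGB replicate 1, ENST00000394997 held 67.9% of HIF1A counts and ENST00000323441 held 3.55%. In the other 5 libraries these shares were 19.4 to 25.1% and 27.7 to 40.8%. All of ENST00000337138, ENST00000394997 and ENST00000323441 are annotated as protein coding, and the gene total in that library was 6570 counts against 5365 to 6260 in the rest. In EGLN2, the protein coding ENST00000303961 held 69.0 to 77.3% of counts in 4 libraries, but 21.5% in MOCK replicate 3 and 17.6% in CYGB replicate 2, the libraries where the gene was low. Retained intron transcripts and ENST00000593726 made up most of the rest there. EGLN1, EPAS1, ARNT, ARNT2, HIF1AN and EGLN3 each had 1 leading transcript in all 6 libraries. HIF3A had no transcript above the filter.

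**Figure D4:**
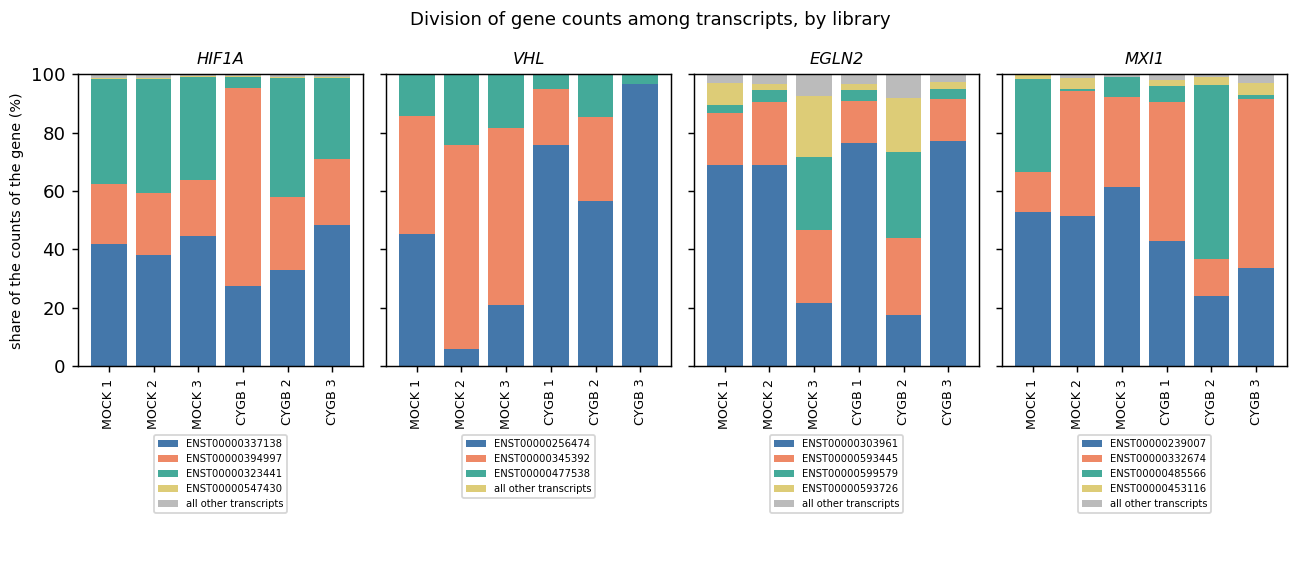
Share of the counts of HIF1A, VHL, EGLN2 and MXI1 given to each transcript in each library, in percent of the gene's counts. Each bar is 1 library; the HIF1A bar of CYGB replicate 1 is 67.9% ENST00000394997, and the VHL bar of CYGB replicate 3 is 96.6% ENST00000256474.

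Among targets with transcripts at an unadjusted p under 0.05, VEGFA transcript ENST00000372067 had 1379, 1502 and 1319 counts in MOCK and 713, 868 and 1055 in CYGB libraries. These did not overlap, and the log2 fold change was -0.68 (SE 0.21, unadjusted p = 0.0182, adjusted p = 1.00). MXI1 transcript ENST00000239007 had 4594, 2481 and 2517 counts in MOCK and 1188, 1898 and 1017 in CYGB libraries, again without overlap, with a log2 fold change of -1.24 (unadjusted p = 0.0226). The groups overlapped in the MXI1 gene total, of which the processed transcript ENST00000485566 took 2755 counts in MOCK replicate 1 and 4711 in CYGB replicate 2. The other 2 were SLC2A1 transcript ENST00000426263, which carries nearly all counts of its gene, and a PLOD2 transcript, ENST00000282903, with 221, 11 and 12 counts in MOCK and 3, 8 and 6 in CYGB libraries.

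A wider list of 46 further symbols of the pathway was examined in the same fit, covering the rest of the VHL ligase, HIF coactivators, histone demethylases and related hydroxylases, glycolytic enzymes and other targets. These symbols have 47 gene IDs, since ALDOA has 2 that overlap, and 46 of the IDs passed the filter. The list was chosen with earlier results of these data known, so the share of it called cannot serve as a test. At an adjusted p under 0.05, 1 was called (0.055% of all genes). The threshold of the study's methods was passed by 2 (0.565% of all genes), both lower with CYGB. The demethylase gene KDM3A, itself a HIF target, fell by 2.03 on the log2 scale (SE 0.10, adjusted p = 0.00316 by the quasi-likelihood test of edgeR with Benjamini-Hochberg adjustment). Its counts were 10712, 13744 and 13236 in MOCK and 3132, 2801 and 3403 in CYGB libraries, with a wide gap between the groups. Over the alternatives its adjusted p ranged from 1.51e-49 to 0.182. KDM6B, which removes methyl groups from histone H3, had 970, 1363 and 1853 counts in MOCK and 310, 614 and 223 in CYGB libraries. The difference was -1.87 on the log2 scale (SE 0.43, unadjusted p = 0.0048, adjusted p = 0.963), and the adjusted p ranged from 0.0101 with DESeq2 to 1.00 over the alternatives.

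An unadjusted p under 0.05 was found for 5 of the 46, against 4.54% of all genes. Besides KDM3A and KDM6B these were LDHA, TFRC and KLF10, none of them past an adjusted p of 0.05. LDHA, which makes lactate from pyruvate, had 85729, 89366 and 90208 counts in MOCK and 70215, 71858 and 78295 in CYGB libraries, with no overlap and a log2 fold change of -0.29 (SE 0.06, unadjusted p = 0.0027). TFRC, the transferrin receptor, gave 0.27 (unadjusted p = 0.0123), and KLF10, a transcription factor, 0.22 (unadjusted p = 0.0256), each without overlap between groups. Of the 10 glycolytic gene IDs tested, 5 had a log2 fold change above 0 and 5 below, with a median of -0.02, and both IDs of ALDOA were among those below. The 4 genes of the VHL ligase, ELOB, ELOC, CUL2 and RBX1, ranged from -0.12 to 0.09. CYGB replicate 1 was the lowest library for 14 of the 46 gene IDs (30.4%), 6 of the 10 glycolytic ones among them, and CYGB replicate 2 for 13 (28.3%), against 19.0% and 15.7% of all genes. CYGB replicate 3 was the highest for 13 (28.3%), against 17.9%.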

How the data were processed

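RNA-seq was made from total RNA of 3 MOCK and 3 CYGB libraries of HCT116 cells on a NovaSeq instrument with paired-end reads. The values the authors deposited are counts of reads for each transcript, not normalized. Per the labels' processing notes, HISAT, HISAT2, DESeq2 and the build hg19 were used, with no versions. The counting tool is not given in the sources used here. Of the 172678 transcripts, 151453 carry a gene. Of these, 151393 are in GENCODE 29, 99.5% at the same position, so coordinates are GRCh38. The 21225 transcripts without a gene (18.6 to 19.5% of counts) were left out.

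Counts were summed per gene, filtered with filterByExpr (minimum count 10), normalized by TMM and tested CYGB against MOCK with edgeR 4.0.16 (glmQLFit, glmQLFTest; R 4.3.3, limma 3.58.1), with Benjamini-Hochberg adjustment over 19987 genes, and likewise over 66609 transcripts. CPM used TMM-scaled library sizes, and TPM used GENCODE 29 transcript lengths. Intervals are 95% intervals from the fit. Each library was counted as 1 replicate. Pairs of libraries of a group differed by more than sampling noise (chi-square per gene 77.3 to 96.6), which cannot show whether they came from separate cultures. The biological coefficient of variation was 36.6% for genes and 78.9% for transcripts. The steps were tested on simulated data.

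Named genes were the 10 regulators, members with an unadjusted p under 0.05 and VEGFA, CA9, SLC2A1, NDRG1, BNIP3, ADM and PDK1; the other members are given more briefly. The members, the wider list and the marker lists were chosen with earlier results of these data known. Of 10 epithelial markers, CDX1 was not analysed here; of the wider list, PPP1R3C did not pass the filter. Alternatives were DESeq2 1.42.0 and its size factors, edgeR's exact test, no filter, a mean of at least 50 counts, transcripts without a gene included, the replicate number as a block, the most abundant transcript, and leaving out each library. The median of the members under each alternative was added after seeing the data. Figures were drawn with matplotlib 3.10.9.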

Additional observations from a re-analysis of the deposited data

How the results depend on the processing

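Across all alternatives, no member reached an adjusted p under 0.05. Of 488 log2 fold changes of the 35 members under the alternatives, 460 kept their direction and 28, of 15 genes, turned it, and the cause was not tested. Those turned by settings other than leaving out a library were HIF1A (-0.19 by its most abundant transcript), EGLN2 (-0.079 with the replicate block) and NDRG1 (-0.023 with the replicate block and -0.34 by its most abundant transcript). Over the fits that left out 1 library, the log2 fold change ranged from -0.038 to 0.11 for HIF1A, -0.052 to 0.12 for EPAS1, -0.037 to 0.095 for ARNT2, -0.35 to 0.47 for EGLN2 and -0.45 to 0.61 for NDRG1. It ranged from -0.12 to 0.036 for BNIP3L, -0.38 to 0.11 for P4HA2, -0.13 to 0.071 for LOXL2, -0.25 to 0.0099 for DDIT4 and -0.016 to 0.32 for SLC2A3. It ranged from -1.08 to 0.061 for MXI1, -3.08 to 0.75 for BHLHE40, -0.20 to 0.031 for FAM162A, -0.036 to 0.15 for PFKFB4 and -0.13 to 0.40 for INSIG2. The median over the members stayed below 0 throughout, from -0.13 without CYGB replicate 3 to -0.01 without CYGB replicate 1, and was -0.10 without the 5 members spread over more than 4-fold.

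Counts of calls depended more on the setting. At an adjusted p under 0.05, the 11 genes became 108 with DESeq2, 64 with edgeR's exact test, 6 when gene-less transcripts were kept, 0 with the replicate block and 6 to 14 with 1 library left out. At the threshold of the study's methods, the 113 genes became 263 with DESeq2, 62 where a mean of 50 counts was required, 256 with the exact test, 72 when gene-less transcripts were kept and 124 to 177 with 1 library left out. The 10 transcripts at an adjusted p under 0.05 became 748 with DESeq2, 0 with the replicate block and 0 to 7 with 1 library left out (0 without CYGB replicate 3, where 3100 had an unadjusted p under 0.05). The 681 transcripts at the threshold of the methods became 1506 with DESeq2, 319 where a mean of 50 counts was required, 291 with the block and 961 to 1209 with 1 library left out. For member genes, the count at that threshold was 1 with DESeq2 and 0 to 1 with 1 library left out. For member transcripts it was 1 with DESeq2, 1 with the block and 0 to 3 with 1 library left out. On the wider list, genes at an adjusted p under 0.05 were 2 with DESeq2, 2 with the exact test and 0 with the block, and those past the threshold of the methods were 1 with the block and 1 to 2 with 1 library left out.

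Libraries share replicate numbers only: deviations of same-numbered libraries correlated at 0.029, 0.005 and 0.031. With the replicate number as a block, no gene or transcript had an adjusted p under 0.05 by edgeR (764 genes and 1814 transcripts at an unadjusted p under 0.05; DESeq2 without the block called 108 and 748), and the value for CYGB was 10.40 (adjusted p = 0.170), while KDM3A gave -2.03 (adjusted p = 0.182), the only alternative under which it lost its call. With 3 libraries per group, differences of the uneven members could not be resolved at this replication, and for HIF3A and LOX low counts add to this.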
